A study of Mus musculus with 72 samples.

Results

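The genes of 6 receptors, Tacr3, S1pr3, P2ry1, Rxfp1, Oprm1 and Gipr, were followed in Pet1-lineage neurons of the mouse dorsal raphe (DR) that carry the transcript of Met. The 6 receptors were chosen by their high values in the Met-expressing 10X cells and in the P2ry1-cre cells of the caudal DR (cDR), so their higher levels there are a description and were not tested. All 6 were held by both tables, among 17231 genes in the 10X table and 24256 genes in the table of manually sorted cells. P2ry1 was in addition the gene whose promoter drove Cre in the P2ry1-cre cells, so its level in those cells is a check of the sort.

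Pet1 (Fev) is the transcription factor that marks the serotonin lineage of the hindbrain, and the dorsal raphe supplies much of the forebrain with serotonin. The 10X data came from sorted fluorescent neurons of the full DR in 2 runs, the first of genotype Pet1::Flpe+/-; hM3Dq+/+ at a mean age of postnatal day 65.5 and the second of En1::cre+/-;Pet1::Flpe+/-;RC::FrePe+/- at a mean age of day 59, each from pooled mice. No Cre was present in the first run, so hM3Dq itself was not expressed. The second run was limited to the En1 lineage, which arises in the isthmus and the first hindbrain segment. The 70 manually sorted cells all carried Pet1::Flpe+/- and the RC::FrePe+/- reporter, whose intersectional label needs both recombinases, together with 1 of 4 Cre alleles. P2ry1::cre+/- gave 10 cDR cells at postnatal days 62 to 74. Npy2r::cre+/- gave 10 cDR cells and 9 rostral (rDR) cells at days 77 and 87, and Crh::cre+/- gave 8 rDR cells at days 83 and 119. Sert::cre+/- (Slc6a4-cre) gave 6 cDR cells at day 63, and 10 dorsolateral (dlDR), 9 dorsomedial (dmDR) and 8 ventromedial (vmDR) cells at days 63 and 90. The Slc6a4-cre and Crh-cre alleles are BAC transgenes, and the P2ry1-cre and Npy2r-cre alleles are knock-ins at the endogenous gene. The reporter keeps a record of earlier Cre activity, so a labelled cell need not transcribe the Cre driver gene when it is picked. The labels name no animal, and each manual sample is 1 cell, so no difference between groups was tested. The 5 ages among the 10 P2ry1-cre cells show that they came from at least 5 mice.

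Depth ranged from 12320 to 134079 unique molecular identifiers (UMIs, which count captured transcripts) in the 10X cells, with a median of 59646, and from 756872 to 7664103 gene reads in the manual cells. No barcode occurred in both barcode sets of the 10X table, the sets of 869 and 1481 cells that the barcode endings define. Which set belongs to which run is not stated in the columns. Fev, on which the authors had filtered the 10X cells, was detected in 100% of Met and Met-zero cells, both defined below. All 70 manual cells held Fev and Tph2, the enzyme of serotonin synthesis, as did 100% of the Met cells. The summed level of 6 serotonin neuron genes was 4805 CPM (counts per 1000000 counted) in Met cells and 8394 CPM in Met-zero cells. Tph2 was at 1729 against 2884 CPM and Slc6a4 at 704 against 2286 CPM, whereas Slc17a8 was at 295 against 153 CPM. The P2ry1-cre cells had a mean of 9656 CPM for the list, against 13756 to 20165 CPM in the other groups. In the P2ry1-cre cells the summed level of 5 ependymal markers was 0 and that of 5 microglial markers was at most 0.191 CPM. The summed astrocyte list of 6 genes had a median of 636 CPM there (313 to 1475 CPM), with 4 of its 6 genes at 0. The medians of the other 7 groups were 734 to 2599 CPM. In the 10X table the 5 astrocyte markers held together 182 CPM in Met cells and 404 CPM in Met-zero cells. Of these sums Slc1a3 was 1.67 and 0.474 CPM, and Aqp4 was not in that table, so the sums rest on other genes of the list. The ependymal list held 3.13 against 13.7 CPM. The endothelial and mural list held 12.1 CPM in Met cells and 2.65 CPM in Met-zero cells, with a median of 0 per cell in both. The oligodendrocyte list held 42.0 CPM in Met cells and 31.1 CPM in Met-zero cells, with medians of 22.3 and 25.7 CPM per cell and 1593 CPM in the highest Met cell. In the P2ry1-cre cells it had a median of 0 and reached 85.8 CPM, with 4 of its 5 genes at 0, against medians of 15.4 to 43.4 CPM in the other groups. The part of these other cell types in the results was not tested.

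All 6 receptors are G protein-coupled receptors at the cell surface, and Met is the receptor tyrosine kinase for hepatocyte growth factor. Tacr3 is the receptor preferred by the tachykinin neurokinin B, S1pr3 binds the lipid sphingosine 1-phosphate, and P2ry1 answers extracellular ADP. Tacr3 and P2ry1 act mainly through Gq and phospholipase C, which releases calcium from stores, and S1pr3 couples to Gq, Gi and G12/13 proteins. Rxfp1 is the receptor of the hormone relaxin and Gipr that of the incretin GIP, and both raise cyclic AMP through Gs. Oprm1 is the mu opioid receptor, which acts through Gi and Go proteins and inhibits neurons that carry it.

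In the GENCODE annotation of GRCm38 (mm10), all 6 are protein-coding genes. Tacr3 lies on the plus strand of chr3:134829007-134934579 with 5 exons, and P2ry1 on the plus strand of chr3:61002795-61008982. Rxfp1 shares that chromosome, on the minus strand of chr3:79641611-79737880, with 18 exons. S1pr3 is on the plus strand of chr13:51408639-51422797, Oprm1 on the plus strand of chr10:6758506-7038198, Gipr on the minus strand of chr7:19156061-19166127 and Met on the plus strand of chr6:17463800-17573980. Exons of S1pr3, P2ry1 and Oprm1 overlap exons of the opposite-strand genes Gm32834, Gm37035 and Ipcef1. Where counting did not use strand, reads of such a pair cannot be told apart. Ipcef1 held 713 reads over the 70 manual cells and 547 UMIs in the 10X table. Gm37035 held 151 UMIs in the 10X table and was not in the manual table, and Gm32834 was in neither.

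The bases just before the transcription start are shown for the members with a RefSeq promoter entry, to set side by side the upstream sequence of genes detected in the same cells. Entries matched 4 of the 6 members (Tacr3, S1pr3, P2ry1, Oprm1) and Met. Rxfp1 and Gipr had no entry. Each run is the 250 bases before the start in GRCm38.p6, on the plus strand, at chr3:134828757-134829006 for Tacr3, chr13:51408368-51408617 for S1pr3, chr3:61002535-61002784 for P2ry1, chr10:6788320-6788569 for Oprm1 (1 of 3 listed starts) and chr6:17463707-17463956 for Met. Capitals mark a match to 1 of 5 motifs.
Tacr3: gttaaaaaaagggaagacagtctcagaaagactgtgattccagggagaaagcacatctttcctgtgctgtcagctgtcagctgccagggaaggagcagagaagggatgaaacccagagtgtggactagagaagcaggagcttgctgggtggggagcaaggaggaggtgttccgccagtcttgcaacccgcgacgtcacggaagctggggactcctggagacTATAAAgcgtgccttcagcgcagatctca
S1pr3: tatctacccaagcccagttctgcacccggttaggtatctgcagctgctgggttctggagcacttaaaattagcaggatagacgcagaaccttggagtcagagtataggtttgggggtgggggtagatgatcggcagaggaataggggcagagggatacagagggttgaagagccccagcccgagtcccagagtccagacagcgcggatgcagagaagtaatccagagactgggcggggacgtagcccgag
P2ry1: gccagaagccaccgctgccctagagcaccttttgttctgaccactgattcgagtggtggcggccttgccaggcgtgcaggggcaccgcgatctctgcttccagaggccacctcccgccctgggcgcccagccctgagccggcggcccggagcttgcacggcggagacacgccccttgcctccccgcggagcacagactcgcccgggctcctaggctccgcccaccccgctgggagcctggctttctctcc
Oprm1: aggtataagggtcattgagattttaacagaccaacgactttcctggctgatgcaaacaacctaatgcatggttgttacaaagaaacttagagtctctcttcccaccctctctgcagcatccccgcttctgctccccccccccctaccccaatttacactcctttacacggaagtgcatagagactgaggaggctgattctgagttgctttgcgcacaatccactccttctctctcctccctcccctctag
Met: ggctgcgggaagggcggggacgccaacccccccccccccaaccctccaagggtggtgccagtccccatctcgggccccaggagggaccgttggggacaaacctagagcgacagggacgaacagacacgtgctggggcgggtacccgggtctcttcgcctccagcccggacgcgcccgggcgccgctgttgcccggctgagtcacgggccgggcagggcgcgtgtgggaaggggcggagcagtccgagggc
Both strands were searched for each motif, and overlap between motifs was allowed. The E-box of ZEB2, written CACCTG, occurs in 17.2% of 32851 promoter windows of this length. A core site of nuclear receptors such as NR2F2, written AGGTCA, occurs in 14.0% of them. A site of the Gata factor family, AGATAA, occurs in 9.99%, and a site of the Ets factors, the family of Pet1, written CCGGAA, in 12.0%. The box that positions the transcription start at some promoters, written TATAAA, occurs in 12.4%. The 1 match was to this last motif in Tacr3, 24 to 29 bases before the start. GC content was 54.4% for Tacr3, 56.4% for S1pr3, 70.8% for P2ry1, 50% for Oprm1 and 74% for Met, beside a median of 52.4% over all windows. A match is a description of these letters only.

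To ask how often the receptors were found in the same cells, 10X cells were divided by their Met count. Met cells held at least 2 Met UMIs (103 cells, 4.38% of 2350), 36 cells held 1 Met UMI and formed a class of their own, and 2211 Met-zero cells held none. Of the Met cells, 99 lay in cluster 12, the cluster of 109 cells marked by Met and Zeb2 (a zinc finger and homeobox transcription factor), and 4 lay in other clusters. Zeb2, which did not enter the Met class, was found in 99.0% of Met cells and 1.99% of Met-zero cells. Met cells were shallower, with a median of 45568 UMIs, than cells with 1 Met UMI (56951) and Met-zero cells (60493). They made up 4.60% of barcode set 1 and 4.25% of barcode set 2.

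Each receptor was found in a larger share of Met cells than of Met-zero cells, although the Met-zero cells were deeper. S1pr3 was detected in 97 of 103 Met cells, 94.2% (exact Clopper-Pearson interval 87.8 to 97.8%), against 10.3% of Met-zero cells (9.03 to 11.6%). P2ry1 followed with 85.4% (77.1 to 91.6%) against 11.0%, and Rxfp1 with 84.5% (76.0 to 90.9%) against 9.95%. Tacr3 had the lowest background of the 6, with 81.6% of Met cells (72.7 to 88.5%) against 1.49% of Met-zero cells (1.03 to 2.09%). Gipr was found in 55.3% (45.2 to 65.1%) against 4.84%, and Oprm1 in 54.4% (44.3 to 64.2%) against 5.38%. These intervals cover counting error only, not differences between mice. In cells with 1 Met UMI the shares lay between, from 13.9% for Tacr3, Oprm1 and Gipr to 30.6% for S1pr3 and P2ry1.

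**Figure D1:**
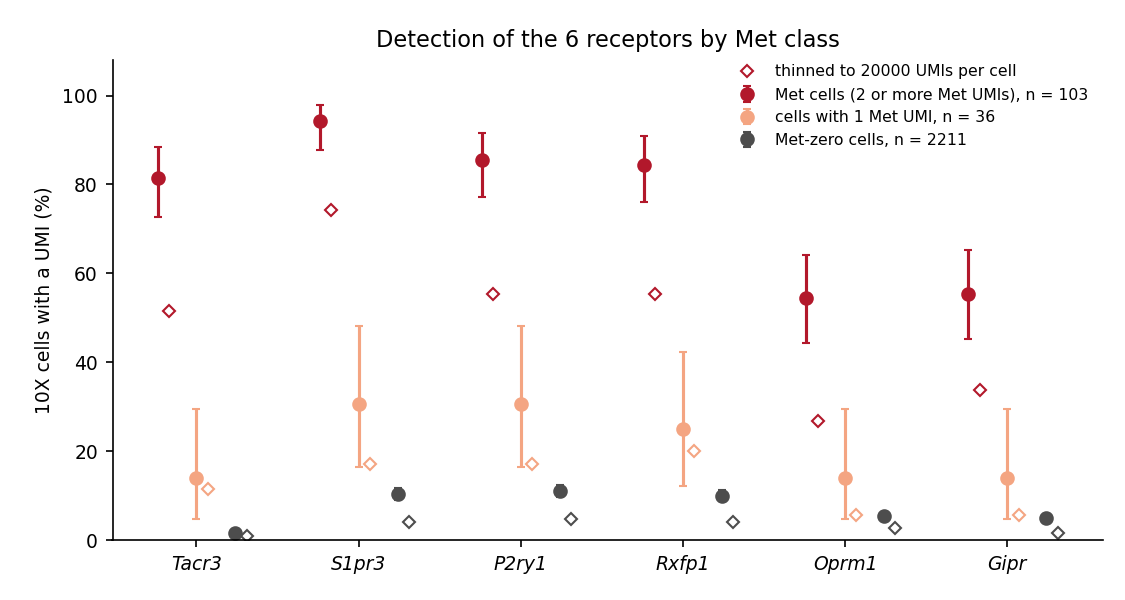
Share of 10X cells with at least 1 UMI of each receptor (y axis, percent) in Met cells, cells with 1 Met UMI and Met-zero cells. Filled points with bars are shares with exact 95% Clopper-Pearson intervals, and open diamonds of the same colour are shares after each cell was thinned to 20000 UMIs. Met cells lie above Met-zero cells for all 6 receptors, between 54.4% and 94.2% before thinning.

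With every cell thinned to 20000 UMIs, the shares fell in both classes and kept their order between classes. Of 101 thinned Met cells, S1pr3 was found in 74.3% and Oprm1 in 26.7%, with 51.5% for Tacr3, 55.4% for P2ry1 and for Rxfp1, and 33.7% for Gipr. In 2161 thinned Met-zero cells the shares ran from 0.879% for Tacr3 to 4.63% for P2ry1.

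The levels, as CPM of the UMIs summed over a class, gave the same picture in each receptor. Tacr3 was at 47.2 CPM (exact Poisson interval 41.3 to 53.8) in Met cells and 0.591 CPM in Met-zero cells, a log2 ratio of 6.32 (5.94 to 6.71). S1pr3 was at 73.7 against 2.02 CPM, a log2 ratio of 5.19 (4.95 to 5.43). P2ry1 was at 54.5 against 2.41 CPM, a log2 ratio of 4.50 (4.26 to 4.74). For the receptors of relaxin and of GIP, and for the mu opioid receptor, the ratios over all cells were smaller, with intervals that overlap that of P2ry1. This order did not hold in each barcode set. Rxfp1 was above P2ry1 in set 1 (5.36 and 5.08), and Gipr was above P2ry1 in set 2 (4.41 and 4.15). Gipr was at 17.1 against 0.917 CPM, a log2 ratio of 4.22 (3.80 to 4.64). Rxfp1 was at 57.4 against 3.16 CPM, a log2 ratio of 4.18 (3.96 to 4.41). Oprm1 was at 18.0 against 1.04 CPM, a log2 ratio of 4.11 (3.70 to 4.51). All 6 were thus past a 4-fold difference, a call that 1.61% of the 15196 genes with at least 20 UMIs in these classes reached. Nothing is read from that count, since the receptors were chosen on this contrast. Their median log2 ratio was 4.36, beside 0.08 over all those genes, and by log2 ratio they ranked from 11 (Tacr3) to 33 (Oprm1).

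Both barcode sets held the difference for each receptor, with unequal sizes for 3 of them. For Tacr3 the level in Met cells was 47.2 CPM in both sets, and the level in Met-zero cells was 0.264 CPM in set 1 and 0.769 CPM in set 2. For Rxfp1 the Met-zero level was 1.23 CPM in set 1 and 4.22 CPM in set 2, so that the log2 ratio was 5.36 (4.86 to 5.87) and 3.86 (3.60 to 4.12). P2ry1 differed in the Met cells themselves, at 69.1 CPM in set 1 and 46.2 CPM in set 2, with log2 ratios of 5.08 (4.67 to 5.48) and 4.15 (3.83 to 4.46). S1pr3 had log2 ratios of 5.04 and 5.28, Oprm1 of 4.31 and 4.01, and Gipr of 4.00 and 4.41 in sets 1 and 2, with intervals that overlap between the sets. The columns do not tie the sets to the runs. The runs differ in genotype, age and mice at once, and the paper also lists their balance of sexes as a possible source of batch differences. These cannot be told apart as sources of the difference between sets.

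Most Met cells held several of the receptors together, and few other cells did. Of 103 Met cells, 24 held UMIs of all 6 receptors, 31 of 5, 33 of 4, 11 of 3, 2 of 2, 1 of 1 and 1 of none, with a median of 5. Of 2211 Met-zero cells, 1430 held none, 626 held 1, 142 held 2, 12 held 3 and 1 held 4, with a median of 0. At least 3 of the 6 were thus found in 96.1% of Met cells (90.4 to 98.9%) and 0.588% of Met-zero cells (0.313 to 1.00%). After thinning to 20000 UMIs, at least 3 were found in 67 of 101 Met cells (66.3%) and in 3 of 2161 Met-zero cells (0.139%). The share of Met cells with at least 3 was 95% in barcode set 1 (38 of 40 cells) and 96.8% in set 2 (61 of 63 cells). The median depth was 43748, 46273, 43910 and 47782 UMIs and the median Met count 5, 8, 6 and 9 in the Met cells with 3, 4, 5 and 6 receptors, with no steady order in either.

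**Figure D2:**
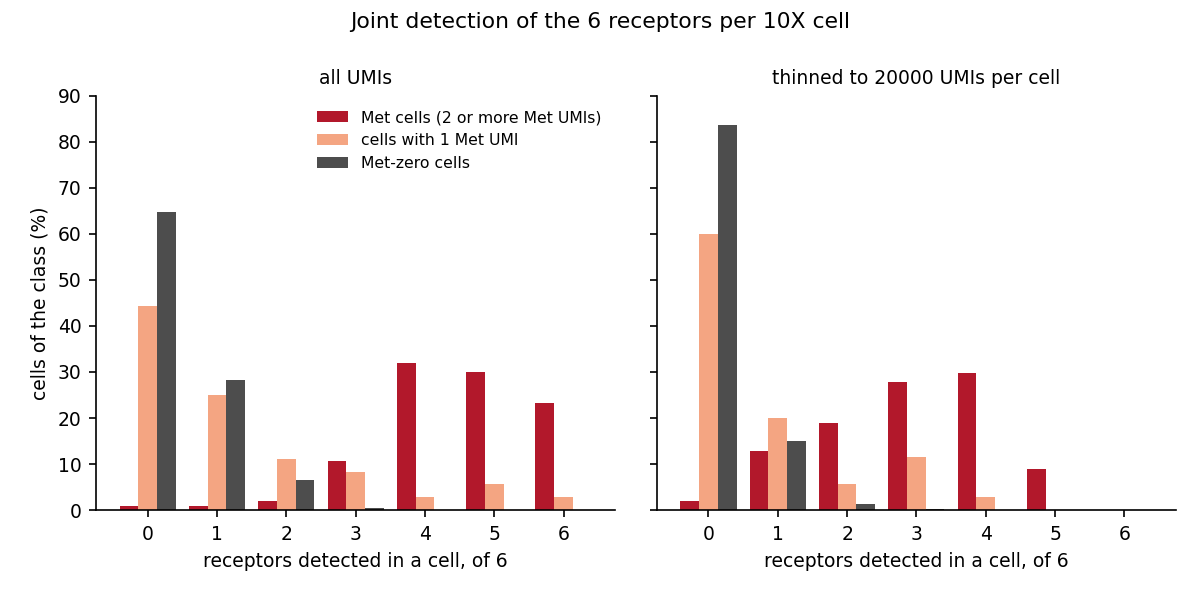
Number of the 6 receptors with at least 1 UMI in a cell (x axis) against the share of cells of the class (y axis, percent), for all UMIs (left) and after thinning to 20000 UMIs per cell (right). In the left panel Met cells peak at 4 receptors (32.0%) and Met-zero cells at 0 (64.7%).

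The commonest set in Met cells was all 6 receptors (24 cells), followed by the set without Oprm1 (16 cells), the set of Tacr3, S1pr3, P2ry1 and Rxfp1 (13 cells) and the set without Gipr (10 cells), among 25 sets seen. Among the 15 pairs, joint detection ran from 30.1% of Met cells for Oprm1 with Gipr to 81.6% for S1pr3 with P2ry1 and S1pr3 with Rxfp1. Oprm1 was found in 54.8% of the Met cells with Tacr3 and in 52.6% of those without it, and Gipr in 55.4% of the Met cells with Oprm1 and in 55.3% of those without it. Among splits with at least 15 Met cells on each side, the widest was in Tacr3, found in 86.2% of the 87 Met cells with Rxfp1 and 56.2% of the 16 without it. The next were in Rxfp1, at 89.3% of the Met cells with Tacr3 and 63.2% of the 19 without it, and in Gipr, at 59.5% and 36.8% in the same cells. Across the 103 Met cells, Pearson's r of log2(CPM + 1) between receptors ranged from -0.06 (Rxfp1 with Gipr) to 0.29 (Tacr3 with Rxfp1), with a median of 0.13 over the pairs. These cells share depth and libraries, and at so few UMIs per cell such weak correlations are no finding.

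The number of Met cells without a UMI was set beside the number that a common level and counting error alone would leave. Rxfp1 was absent from 16 Met cells where a common level and the cells' own depths would leave 8.62, P2ry1 from 15 against 9.69 and Tacr3 from 19 against 13.0. For S1pr3 the numbers were 6 cells against 4.59, for Gipr 46 against 47.2 and for Oprm1 47 against 45.5. Per cell, Tacr3 reached 9 UMIs, P2ry1 13, S1pr3 10, Rxfp1 8, Oprm1 5 and Gipr 3.

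Near the boundary of the Met class, the 10 cells with exactly 2 Met UMIs held a median of 5 receptors, and 9 of them held at least 3, whereas the 36 cells with 1 Met UMI held a median of 1. Among the latter, the 7 that fell in cluster 12 held 2 to 5 receptors and all had Zeb2 UMIs, and the 29 outside it held a median of 0, with 16 cells at none. A cell with 1 Met UMI in cluster 3, marked by Kit, Hcrtr1 and Phlda1, held all 6 receptors, 4 Zeb2 UMIs and 47160 UMIs in total. The 4 Met cells outside cluster 12 held 3 or 4 receptors, 3 to 12 Zeb2 UMIs and 38715 to 84105 UMIs in total. The 3 Met-zero cells in cluster 12 held 3, 3 and 4 receptors and all had Zeb2 UMIs. The 10 Met-zero cells with 3 receptors outside that cluster had no Zeb2 UMI and a median of 68736 UMIs. Whether any of these barcodes held 2 cells was not tested.

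Across the 14 clusters, cluster 12 had the highest level of each receptor, and the runner-up differed between receptors. The clusters were built from these cells' expression, so the order is a description. For Oprm1, cluster 12 was at 18.3 CPM and cluster 14 (Gpr101, Ecel1, Cxcl14) at 6.44 CPM, a ratio of 2.84, with cluster 13 (Nfib, Nppc, Bmp3) at 4.31 and cluster 7 (Tmeff2, Adcy2, Nrp2) at 3.88 CPM. For Rxfp1, cluster 12 was at 58.0 CPM, 5.01 times the 11.6 CPM of cluster 8 (Rorb, Nr2f2, Wnt4), followed by cluster 4 (Sox14, Vim, Prkcq) at 9.66 and cluster 10 (Hs3st5, Hcrtr2, Cbln2) at 6.41 CPM. Without the 1 cell that held 24 of its UMIs, cluster 8 was at 7.22 CPM, below cluster 4, so that its place as runner-up for Rxfp1 rests on that cell. For Tacr3, cluster 12 was at 46.3 CPM and again cluster 8 came next at 8.82 CPM, then cluster 13 at 3.17 CPM, and no other cluster exceeded 0.520 CPM. For P2ry1, S1pr3 and Gipr the ratio of cluster 12 to its runner-up was larger, at 10.0, 22.6 and 10.0. P2ry1 was at 54.3 CPM in cluster 12, then 5.44 CPM in cluster 10, 4.49 in cluster 3 and 4.16 in cluster 6 (Pou3f2, Bcl11a, Gad1), and at 0 in 3 clusters. S1pr3 was at 74.7 CPM in cluster 12 and between 0.664 and 3.31 CPM in the other 13. Gipr was at 16.7 CPM in cluster 12 and at most 1.66 CPM elsewhere. Cluster 12 and its runner-up had separate exact Poisson intervals for each receptor. Among the other 13 clusters the intervals of neighbours in the order overlapped in all 12 pairs for S1pr3, P2ry1, Oprm1 and Gipr, in 11 of 12 for Rxfp1 and in 10 of 12 for Tacr3. Built with components 6 and 7 of the expression space kept, the 109 cells of cluster 12 formed clusters of 67 and 42 cells, and the first held 66 cells of barcode set 2 and the second 42 of set 1. Their levels were 48.6 and 42.2 CPM for Tacr3, 75.8 and 72.7 for S1pr3, 64.1 and 47.2 for Rxfp1, 15.5 and 18.9 for Gipr and 18.3 in both for Oprm1, all with overlapping Poisson intervals. P2ry1 was at 47.4 and 66.6 CPM, with intervals that just overlap (40.1 to 55.6 and 55.2 to 79.6).

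**Figure D3:**
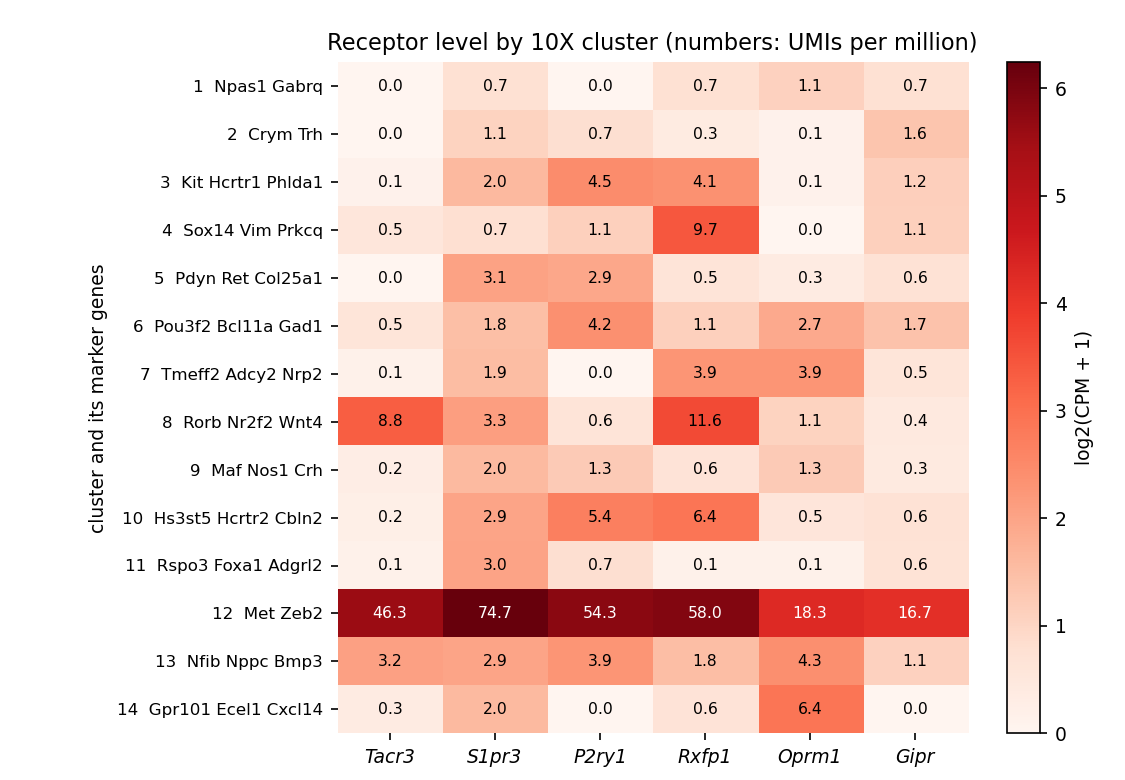
Level of each receptor (columns) in the 14 clusters of 10X cells (rows, with their marker genes). The printed numbers are CPM of the UMIs summed over a cluster and the colour is log2(CPM + 1). Cluster 12 holds the highest value in each column, from 16.7 for Gipr to 74.7 for S1pr3, and the next highest value for Tacr3 and Rxfp1 is in cluster 8, for Rxfp1 by way of 1 cell.

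Rxfp1 was found in 220 Met-zero cells, including the 3 in cluster 12, in some clusters at many UMIs in few cells and in others at few UMIs each. In cluster 8, 19 of 86 cells had Rxfp1 UMIs, and 5 cells held 46 of its 63 UMIs, including 24 UMIs in 1 cell, more than in any Met cell. In cluster 4, 32 of 145 cells had Rxfp1 UMIs with up to 16 UMIs in a cell, and 5 cells held 38 of its 84 UMIs. In cluster 3, 62 of 313 cells had Rxfp1 UMIs, with at most 3 in a cell, and in cluster 10, 57 of 238 cells, where 5 cells held 24 of its 105 UMIs. Of the 30 cells in the table with at least 5 Rxfp1 UMIs, 20 were Met cells and 10 were Met-zero cells. Tacr3 was found in 14 cells of cluster 8, and 6 of these were also among the 19 with Rxfp1. Oprm1 in cluster 14 was found in 20 of 100 cells with at most 2 UMIs each. Of all UMIs in the table, Met cells held 72.7% for Tacr3, 55.2% for S1pr3, 44.4% for P2ry1, 40% for Gipr, 39.3% for Rxfp1 and 37.6% for Oprm1.

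The manual cells offered a second view at higher depth per cell, by full-length libraries. Here the P2ry1-cre cDR cells held a median of 5 of the 6 receptors with at least 1 read (range 3 to 6), against a median of 1 and at most 2 in the 60 cells of the other 7 groups, 29 of which held none. P2ry1, used for the sort, is 1 of the 6 counted and had reads in 8 of the 10 cells. The P2ry1-cre cells were also the deepest group, which favours detection at 1 read. Their median was 5737032 reads, against 3173860 to 5215246 in the others. Their median number of genes was the lowest, 7947 against 8809 to 9780. At 10 CPM or more the P2ry1-cre cells held 2 to 5 receptors with a median of 4, and 41 of the 60 other cells held none. Met itself was at 37.4 to 161 CPM in 9 of the 10 P2ry1-cre cells and at 0 in cell 5, and 2 of the 60 other cells had Met reads, with at most 3.45 CPM. Cell 5 had 81.0 CPM of Zeb2, which was found in all 10 P2ry1-cre cells at 9.04 to 192 CPM and at no more than 0.730 CPM in any other cell.

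Tacr3 had reads in 9 of the 10 P2ry1-cre cells and in none of the 60 others. Its levels were 0, 0.156, 0.175, 3.28, 12.5, 24.2, 25.4, 54.5, 73.4 and 78.4 CPM, and the 2 lowest values above 0 stand for 1 read each. The mean of 27.2 CPM was at least 200.2 times the floor of 3 reads over the summed reads of a group, a log2 ratio of at least 7.65.

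S1pr3 was at 0 in 1 P2ry1-cre cell and between 10.8 and 247 CPM in the other 9, with a median of 62.7 CPM. Among the 60 other cells 7 had S1pr3 reads, 3 of them in the Slc6a4-cre cDR group, where 1 cell reached 76.3 CPM. The mean was 76.8 CPM against 13.5 CPM in that group, the highest of the others, a log2 ratio of 2.51. Without the cell at 76.3 CPM the highest other group was vmDR at 3.41 CPM and the log2 ratio was 4.49. The groups overlap, since 4 of the P2ry1-cre cells lay above every other cell.

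P2ry1, used for the sort, was at 0 reads in P2ry1-cre cells 6 and 7 and at 8.42 to 126 CPM in the other 8, with a median of 51.8 CPM. Reads were present in 10 of the 60 other cells, the highest at 80.3 CPM in a Crh-cre rDR cell, and 5 of the P2ry1-cre cells lay above it. The mean of 59.4 CPM stood against 12.7 CPM in the Crh-cre rDR group, where 4 of 8 cells had reads, a log2 ratio of 2.22. Without the Crh-cre rDR cell at 80.3 CPM that group was at 3.10 CPM, the highest other group was dmDR at 3.66 CPM and the log2 ratio was 4.02.

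Rxfp1 had reads in all 10 P2ry1-cre cells, from 0.378 CPM (2 reads) to 246 CPM with a median of 30.6 CPM. Its values fell apart into 4 cells at 123 CPM or more and 6 cells at 41.0 CPM or less. Among the other cells 6 had reads, with at most 29.7 CPM in a Slc6a4-cre vmDR cell, and 5 of the P2ry1-cre cells lay above that. The mean was 75.5 CPM against 5.23 CPM in the vmDR group, a log2 ratio of 3.85. Without the vmDR cell at 29.7 CPM it was 5.44, against a group mean of 1.73 CPM.

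Gipr also had reads in all 10 P2ry1-cre cells, from 1.40 CPM in cell 5 to 131 CPM, a median of 76.9 CPM and 9 cells at 10 CPM or more. It was also found in 12 of the 60 other cells, and the highest value of all 70 cells, 130.9 CPM, was in Slc6a4-cre vmDR cell 8. With 4 of its 8 cells at reads, the vmDR group had a mean of 22.4 CPM against 70.7 CPM, a log2 ratio of 1.66, which was under 4-fold. Without vmDR cell 8 the group mean was 6.85 CPM and the log2 ratio 3.37, past 4-fold, so that 1 cell decides this call.

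Oprm1 was the least often found, with reads in 4 of the 10 P2ry1-cre cells at 0.570, 8.00, 60.6 and 121 CPM and none in 6. The cells at 60.6 and 121 CPM were cells 6 and 7, the same 2 that had no P2ry1 read. Reads were present in 4 of the 60 others, 1 in the Slc6a4-cre cDR group at 16.8 CPM and 3 in the Npy2r-cre cDR group at up to 11.4 CPM. The mean was 19.0 CPM against 2.79 CPM in the Slc6a4-cre cDR group, a log2 ratio of 2.76 that cells 6 and 7 carry. Without cell 7 it was 1.46, under 4-fold, and without the Slc6a4-cre cDR cell at 16.8 CPM it was 3.95.

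**Figure D4:**
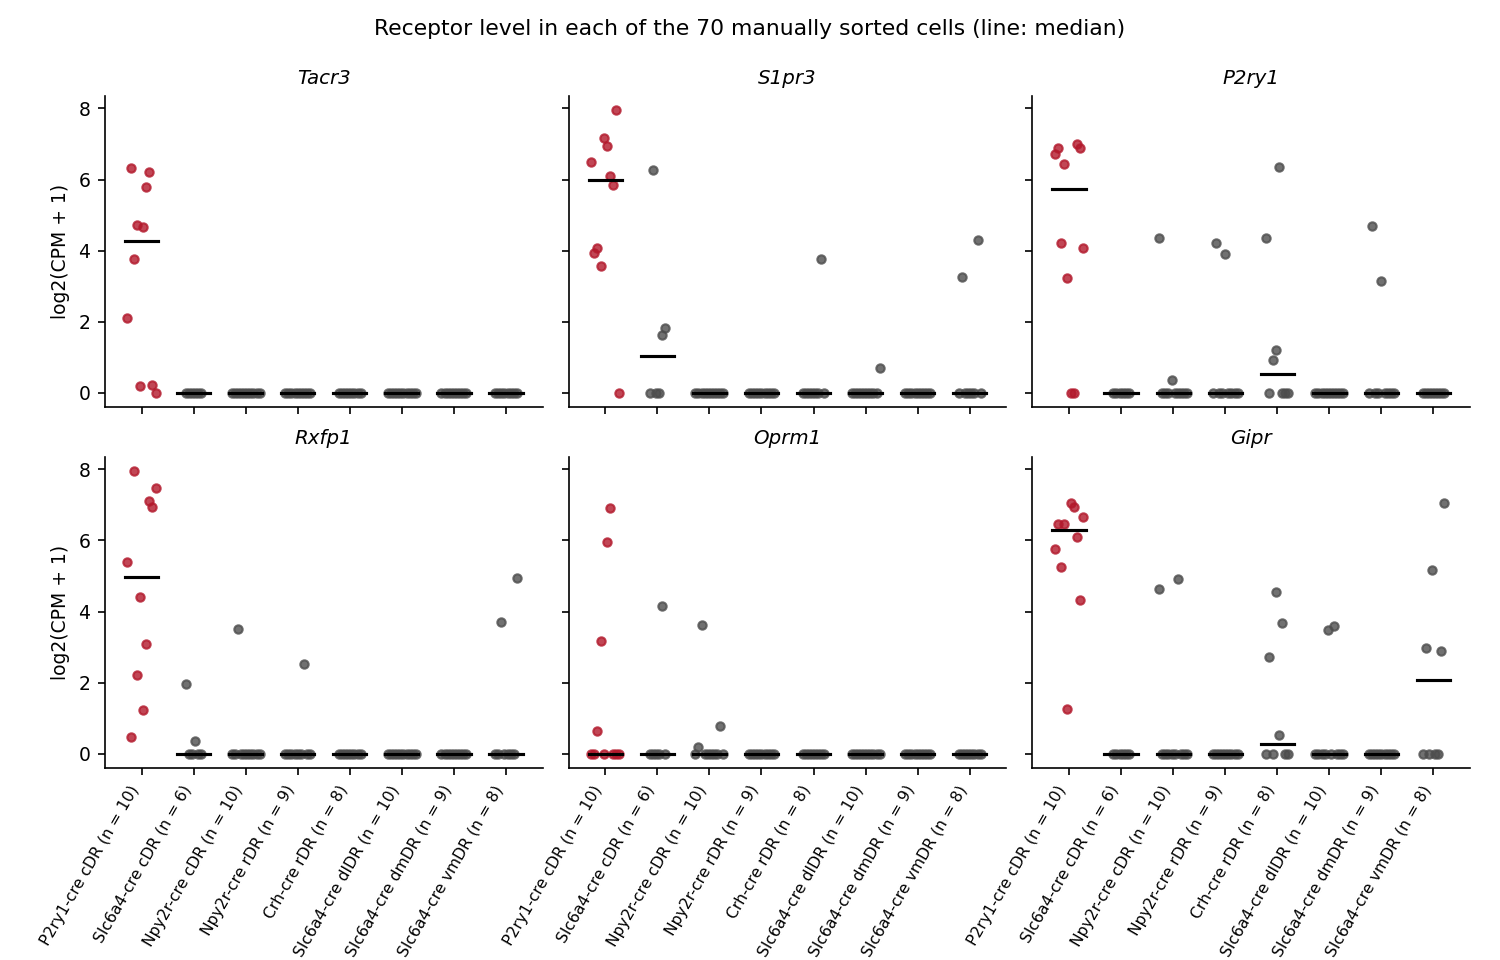
Level of each receptor in each of the 70 manually sorted cells, as log2(CPM + 1) on the y axis, by sorted group on the x axis; points are cells and lines are group medians. P2ry1-cre cDR cells are red, and Tacr3 is at 0 in all 60 cells of the other groups.

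By the mean over all cells, 5 of the 6 receptors were at least 4-fold above the highest of the 7 other groups and Gipr was not, where 1.23% of 13445 genes with at least 100 reads reached that call. The receptors were selected on this comparison, so the count says nothing further. No receptor had its lowest P2ry1-cre cell above the highest other cell, a separation that 0.0223% of the genes (3 genes, Zeb2, Nap1l5 and Pcp4l1) showed. The 7 groups differ from the P2ry1-cre cells in Cre allele, all but 2 of them in position and most cells in age, and these cannot be told apart.

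Within the P2ry1-cre cells the receptors followed different orders by age in the labels. Each age was 1 to 4 cells. Gipr had means by age from 45.5 to 86.9 CPM, and P2ry1 ranged from 23.6 to 126 CPM. Rxfp1 was at 0.378 CPM in the day 62 cell, 8.20 CPM over the 4 cells of day 64 and 137 to 149 CPM at days 63, 66 and 74. Oprm1 was at 47.3 CPM at day 64 and at most 0.285 CPM at the other 4 ages. Without the day 64 cells its log2 ratio to the highest other group was -4.88, whereas the ratios of the other 5 receptors stayed above 0 without any single age. Tacr3 was at 0.0874 CPM over the 2 cells of day 66, which both had Met at 137 CPM or more, and at 73.4 and 78.4 CPM in the single cells of days 63 and 62. The age and the mouse cannot be told apart.

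Genes with the most similar pattern were sought among 15116 genes found in at least 20 10X cells, by Pearson's r of log-normalized values over all 2350 cells, with r over the 70 manual cells beside it. Met and Zeb2 were among the first 3 genes for each of the 6 receptors. For S1pr3, r was 0.78 with Zeb2 and 0.75 with Met (0.64 and 0.59 in manual cells), and Tecrl came next at 0.62 (0.49). For P2ry1, r was 0.67 with Met and 0.64 with Zeb2 (0.68 and 0.53), and S1pr3 came next at 0.60 (0.48). For Tacr3, r was 0.64 with Met and 0.60 with Zeb2 (0.66 and 0.46), with Pdlim5 next at 0.56 (0.42). For Rxfp1, r was 0.59 with Zeb2, 0.56 with Tecrl and 0.54 with Met (0.70, 0.81 and 0.80). For Gipr, r was 0.49 with Met, 0.48 with Zeb2 and 0.39 with S1pr3 (0.70, 0.66 and 0.39). For Oprm1, r was 0.42 with Zeb2, 0.39 with Met and 0.37 with Pdlim5 (0.26, 0.36 and 0.29). Cells share libraries and depth, and these values restate the split between Met cells and the rest.

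Close relatives of the receptors, their ligands and their effectors were read from lists of pathway genes. Of 66 such genes beside the receptors and Met, 50 were in the 10X table and 40 passed 20 UMIs. Of the 40, 1, S1pr5, was at least 4-fold higher in Met cells, where 1.61% of all genes were, and 3, Tac1, Penk and Pdyn, were at least 4-fold lower, where 4.17% were. Their values are given by role, and nothing is called particular to a list.

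Among receptors of the same families, S1pr5, another sphingosine 1-phosphate receptor, was at 5.01 CPM in Met cells and 1.03 CPM in Met-zero cells, a log2 ratio of 2.29 (1.60 to 2.92), and was found in 18.4% and 5.29% of cells. In the manual cells S1pr5 had reads in 2 of the 10 P2ry1-cre cells and in 9 of the 60 others, with means of 9.89 CPM and up to 8.46 CPM. P2ry14, the receptor of UDP-sugars, was at 14.4 against 4.28 CPM, a log2 ratio of 1.75 (1.37 to 2.11), and Oprk1, the kappa opioid receptor, at 4.39 against 1.68 CPM, a log2 ratio of 1.39 (0.66 to 2.03). The manual cells did not hold the same order for P2ry14, with a mean of 4.59 CPM in the P2ry1-cre cells and of 0.926 to 17.8 CPM in the other groups, highest in dmDR. Oprk1 had reads in 2 P2ry1-cre cells and 4 of the 60 others, with means of 12.0 CPM and up to 5.71 CPM. Oprl1, the nociceptin receptor, was found in 87.4% of Met cells and 92.4% of Met-zero cells with a log2 ratio of -0.06. Tacr1, the substance P receptor, was at 0.836 against 1.67 CPM, and the interval of its log2 ratio (-2.89 to 0.38) includes 0. Oprd1, the delta opioid receptor, and Rxfp2 had 3 UMIs each in Met-zero cells and none in Met cells.

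Among ligands and the enzymes around them, Pdyn, the dynorphin precursor, was at 5.43 CPM in Met cells and 50.6 CPM in Met-zero cells, a log2 ratio of -3.22 (-3.84 to -2.67), was found in 5.83% and 49.0% of cells, and had reads in 1 P2ry1-cre cell and 31 of the 60 others. Penk, the enkephalin precursor, was at 0.418 against 5.70 CPM (2 UMIs in Met cells), a log2 ratio of -3.77 (-6.82 to -1.91), and was found in 1.94% of Met cells and 4.34% of Met-zero cells. Tac1, the substance P precursor, was at 0.418 against 2.66 CPM (2 UMIs in Met cells), a log2 ratio of -2.67 (-5.72 to -0.81), but the shares of cells were close, at 1.94% and 2.49%. In the manual cells Penk and Tac1 had no reads in the P2ry1-cre cells and reads in 3 and 2 of the 60 others. These precursors make agonists of opioid and tachykinin receptors. Sgpp1, a phosphatase that removes sphingosine 1-phosphate, had a log2 ratio of -1.12 (-1.43 to -0.83), and Spns2, which exports that lipid from cells, a log2 ratio of 1.00 (0.66 to 1.32). In the manual cells Sgpp1 had a mean of 14.1 CPM in the P2ry1-cre cells and of 48.9 to 120 CPM in the other groups, and Spns2 19.2 CPM and 4.42 to 20.0 CPM. Hgf, the ligand of Met, had 7 UMIs in Met cells and 5 in Met-zero cells, under the minimum, with a log2 ratio of 5.23 (3.36 to 7.23). In the manual cells Hgf had reads in 2 P2ry1-cre cells and 3 of the 60 others, with means of 3.42 CPM and up to 0.467 CPM. Spint2, an inhibitor of proteases that activate that ligand, was at 32.2 against 90.5 CPM, a log2 ratio of -1.49 (-1.73 to -1.26), and at a manual mean of 76.8 CPM in the P2ry1-cre cells against 63.8 to 255 CPM in the other groups.

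Among G proteins and phospholipases the largest difference was in Plcb4, a Gq effector, at 438 CPM in Met cells and 140 CPM in Met-zero cells, a log2 ratio of 1.64 (1.58 to 1.71). In the manual cells Plcb4 had a median of 499 CPM in the P2ry1-cre cells, and its highest mean among the other groups was 177 CPM, beside 501 CPM. Gnai1, a Gi subunit, had a log2 ratio of 0.74 (0.69 to 0.80) in the 10X cells, but its mean in the manual P2ry1-cre cells, 376 CPM, lay within the 180 to 393 CPM of the other groups. Gnaq and Gna11, the Gq subunits, had -0.18 and 0.03. Gnas, the Gs subunit, had -0.43 (-0.45 to -0.41), and a manual mean of 85.9 CPM in the P2ry1-cre cells against 138 to 276 CPM in the other groups. None of the 14 genes of that list reached 4-fold, and all 14 passed the minimum.

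**Figure D5:**
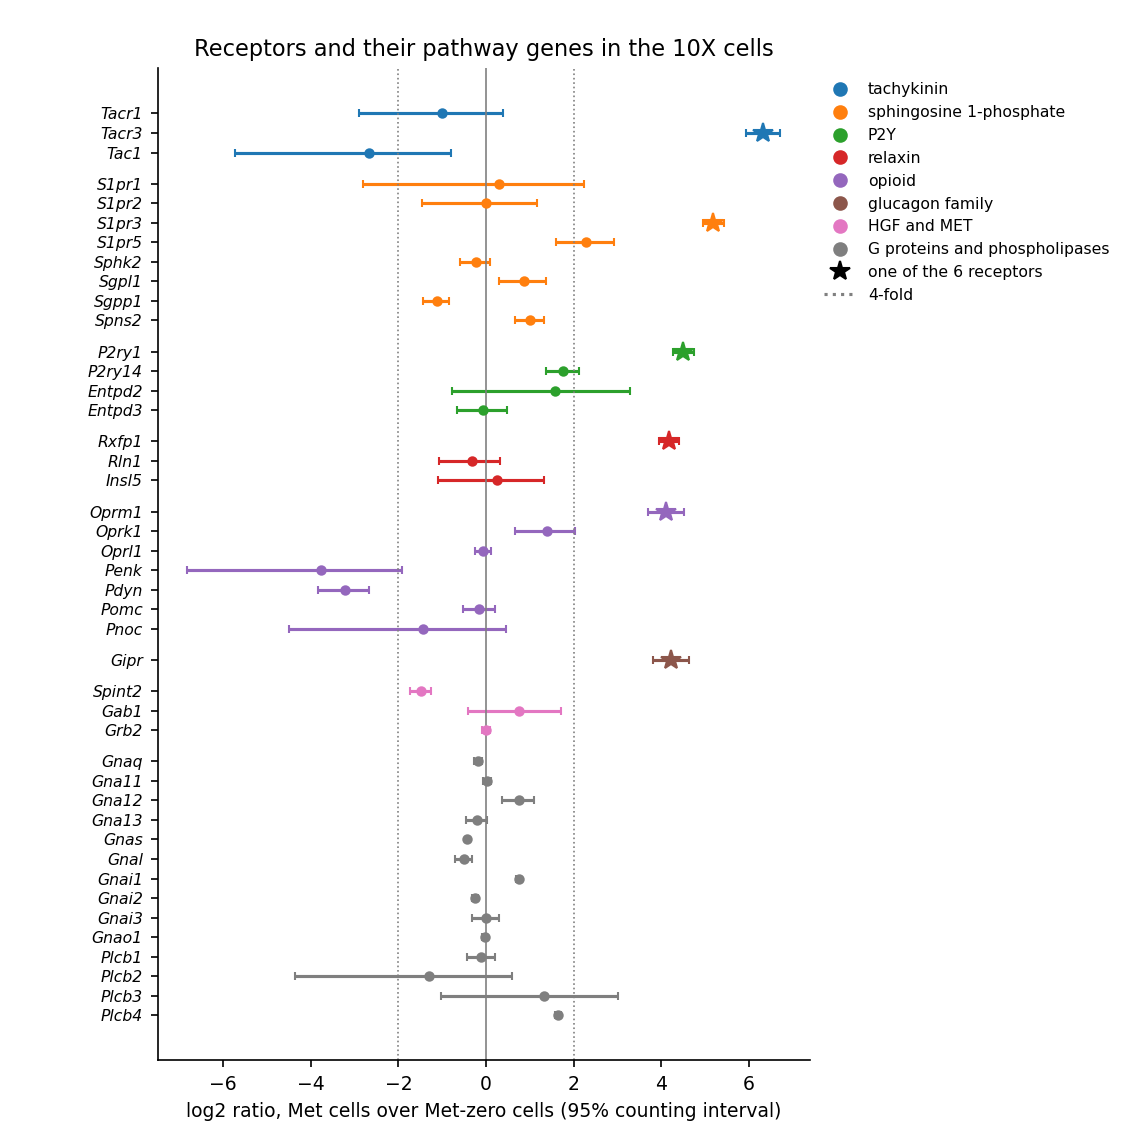
Log2 ratio of CPM in Met cells over Met-zero cells (x axis) for the 6 receptors (stars) and genes of their pathways (points), coloured by list; bars are exact conditional 95% counting intervals and dotted lines mark 4-fold. Genes under 20 UMIs, those at 0 in Met cells and Met itself are not drawn. The receptors lie between 4.11 and 6.32, and S1pr5 is the other gene to the right of the dotted line.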

How the data were processed

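Adult mouse dorsal raphe Pet1 neurons were profiled by droplet 10X Chromium 3' v3 libraries and, as single hand-picked cells, by SMART-Seq v4 libraries. The authors deposited UMI counts (10X, mapped to mm10 with Cell Ranger 3.0.2) and read counts (manual, mapped to mm10 with STAR 2.5.4), not normalized. The authors had removed 10X cells by gene number, glial, mitochondrial and Fev transcripts and extreme totals, but the manual table was not filtered in this way. No doublet caller was run here. All 70 manual columns were matched to a sample by title, 8 of them named Crf for Crh.

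The 6 receptors and the gene lists were chosen with earlier results of these data known. Counts were scaled to CPM per cell or per summed class, with exact Poisson intervals for levels, Clopper-Pearson intervals for shares and conditional binomial intervals for ratios, all at 95%. PCR copies make reads of the manual libraries dependent, so intervals and floors cover counting error only. A class or group at 0 took a floor of 3 counts. Thinning drew 20000 UMIs per cell and left out 53 shallower cells. Clusters were built in Seurat 5.3.0 (R 4.3.3) from 2000 variable genes and components 1 to 5 and 8 to 50 at resolution 0.9 with 20 neighbours, and numbered by fixed markers, with 14 of 14 scoring highest for their own number. With 1 cell per manual sample and no animal named, no test between groups was made. The ratio code was tested on simulated data. Python 3.11.15, numpy 2.4.6, scipy 1.17.1 and pandas 2.3.3 were used, with edgeR 4.0.16 and DESeq2 1.42.0 for alternative scaling factors of the read counts.

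Named genes were the receptors, Met, the listed pathway genes and the 3 genes most like each receptor. Zeb2 was also named as the marker of cluster 12, and Nap1l5, Pcp4l1 and the opposite-strand genes were named after their values were seen. Alternatives were other Met thresholds, the Met Zeb2 cluster in place of the Met class, thinning, each barcode set alone, other scalings, medians, leaving out ages, and other cluster settings.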

Additional observations from a re-analysis of the deposited data

Results flagged for a closer look

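For each receptor and sorted group with any reads, the highest and lowest manual cell was compared with the rest of its group, and a cell was picked out where its gap to the next cell took up more of the group's range than Dixon's 95% criterion allows. Of 24 such sets, 15 held a cell that stood apart, always the highest, where chance gives about 1 in 20 for values without the many zeros seen here. The cause was not tested in any case.

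Among the P2ry1-cre cDR cells, cell 7 stood apart for Oprm1 at 121 CPM, with the next cell at 60.6 CPM. In the Slc6a4-cre cDR group, cell 2 stood apart for S1pr3 at 76.3 CPM (next cell 2.51), cell 5 for Oprm1 at 16.8 CPM (next cell 0) and cell 1 for Rxfp1 at 2.93 CPM. In the Slc6a4-cre vmDR group, cell 8 stood apart for both Gipr, at 130.9 CPM (next cell 34.7), and Rxfp1, at 29.7 CPM (next cell 12.1), and cell 7 for S1pr3 at 18.6 CPM. In the Npy2r-cre cDR group, cell 3 stood apart for both Oprm1, at 11.4 CPM, and Rxfp1, at 10.3 CPM, and cell 1 for P2ry1 at 19.3 CPM. The other cases were P2ry1 at 80.3 CPM in Crh-cre rDR cell 5 (next cell 19.5) and at 25.1 CPM in Slc6a4-cre dmDR cell 2, S1pr3 at 12.5 CPM in Crh-cre rDR cell 7 and at 0.616 CPM (2 reads) in Slc6a4-cre dlDR cell 10, and Rxfp1 at 4.81 CPM in Npy2r-cre rDR cell 7.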

How the results depend on the processing

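No paired analysis was possible because each manual sample is 1 cell, the cells of a number share no animal in the labels and no result comes from a test. Each receptor stayed higher in Met cells than in Met-zero cells in all 36 alternative values, with log2 ratios from 3.63 to 7.48. Over the 6 receptors together, the mean share of Met cells with a UMI was 75.9%, the share of Met cells with at least 3 receptors 96.1% and the log2 ratio of summed UMIs 4.72. With cells of 1 Met UMI counted as Met cells these were 61.8%, 76.3% and 4.29, and after thinning the shares were 49.5% and 66.3%, which fewer UMIs per cell lower by construction. In barcode set 1 alone the log2 ratio was 5.13 and in set 2 alone 4.53, and the cause was not tested. The log2 ratio of the summed receptors in cluster 12 over the next cluster was 3.38, and with components 6 and 7 kept it was 0.0206, since the Met cells then formed 2 clusters. With those joined, which was chosen after seeing the data, it was 3.41.

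In the manual cells 5 receptors passed 4-fold under TMM and median-of-ratios scaling, after thinning to 700000 reads and without P2ry1-cre cell 5 (chosen after seeing the data). The number was 4 without the day 64 cells, where Oprm1 reversed to a log2 ratio of -4.88. With each of the 70 cells left out in turn, also chosen after seeing the data, 5 cells moved a receptor's ratio by over 1.5 times or changed its call. The number past 4-fold was then 4 without P2ry1-cre cell 7, where Oprm1 was at 1.46, 6 without vmDR cell 8, where Gipr was at 3.37, and 5 without the other 3. With medians over cells 5 also passed, Gipr in place of Oprm1, whose median was 0. The log2 ratios by medians were 7.08 for Tacr3, 5.90 for S1pr3, 6.84 for P2ry1, 7.82 for Rxfp1 and 4.59 for Gipr. By means they were 7.65, 2.51, 2.22, 3.85 and 1.66, so their size depends on this choice. Over all genes, the 10X count of 244 genes became 904 at a fold of 2, 84 at a fold of 8 and 543 with no minimum beyond 1 count. The manual count of 165 became 435 at a fold of 2 and 85 at a fold of 8. In all, 161 of 209 alternative values moved by less than their counting interval or spread, 47 moved further and 1 reversed. A value among the 161 can still lose its 4-fold call, as Oprm1 did without P2ry1-cre cell 7. By Spearman's rho, at least 2 of the 3 most similar genes were shared for each receptor. At 45568 UMIs per Met cell, a receptor without a UMI may be present at a low level.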
